A study of Chlorocebus aethiops with 36 samples.

Results

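Nuclear receptors are transcription factors that bind DNA and are switched by small fat-soluble ligands, and in the liver they set the handling of cholesterol, fatty acids, bile acids and drugs. NR1H3 (liver X receptor alpha) senses oxysterols, PPARA senses fatty acids and drives their oxidation, NR1I3 (constitutive androstane receptor) controls drug metabolism, and NR5A2 (liver receptor homolog) controls genes of bile acid and lipoprotein metabolism. RXRA is the shared partner with which several of them bind DNA, and PPARGC1A is a coactivator that they recruit, known for its induction in fasting. Members of this set were chosen by name: every probe set that the platform annotation assigns to only 1 of 10 listed genes. This gave 20 of 54675 probe sets, for 6 of the genes: NR1H3, PPARA, PPARGC1A, RXRA, NR1I3 and NR5A2. The other 4 genes are not analysed here.

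Liver biopsies came from 12 male African green monkeys (Chlorocebus aethiops), each sampled 3 times, which made 36 arrays in 6 groups of 6. The anti-miR-33 arm of 6 animals was given an oligonucleotide that binds and blocks miR-33, a microRNA carried within the SREBF genes that holds down cholesterol export through ABCA1 and also fatty acid oxidation, and the other 6 were given a control anti-miR. Both were injected under the skin at 5 mg/kg. Baseline biopsies were taken at week -5 without treatment on chow, with the arm taken from the animal's later labels, those of week 4 under treatment on chow, and those of week 12 under treatment after 8 weeks on a high carbohydrate, moderate cholesterol diet. The labels put 1 control array of week 4, that of animal 1, on the later diet. Leaving it out changed no call of a member probe set named below unless stated. Calls of other genes were not compared without it.

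Expression was read on a human array (HG-U133 Plus 2.0), so human probes met the transcripts of another primate. Values are log2 expression from RMA, which removes background, equalises the arrays and merges the probes of each set into 1 value. A probe set's values were compared only with its own values on other arrays. All tests below are two-sided limma tests over the 27304 probe sets with a mean at or above the median of all probe sets, 4.459, with Benjamini-Hochberg adjustment within a comparison and a threshold of 0.05. Of the member probe sets, 12 passed that limit and 8 did not, so counts below are over 12 and the other 8 are described apart.

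The biopsies read as liver. The hepatocyte markers ALB, APOA1 and TTR averaged 13.8, 14.7 and 14.1, near the top of the table's range of 2.41 to 15.07. The mean of 12 hepatocyte markers ran from 12.1 to 12.3 at baseline, from 12.0 to 12.3 at week 4 and from 11.7 to 12.4 at week 12. Endothelial markers were lower after baseline, with 7 of 8 called lower at week 4 and 7 of 8 at week 12, against baseline, and a mean over the 8 that ran from 6.55 to 7.31 at baseline, from 5.99 to 6.88 at week 4 and from 5.96 to 6.53 at week 12. Of 7 macrophage markers 3 and 2 were called lower at those times, of 7 stellate cell and fibroblast markers 3 and 3, and both blood markers were lower at week 12. Over all 13634 genes tested by their highest-signal probe set, 20.4% and 15.9% were called lower at those times. A measure of RNA quality, the difference between the 3′ and 5′ control probe sets of GAPDH and ACTB, was 2.57 ± 0.43 in baseline arrays, 1.94 ± 0.41 in those of week 4 and 1.83 ± 0.16 in those of week 12 (SD, n = 12 each). The labels' array identifiers run in 1 series for the baseline and week 12 arrays and in a separate series for week 4. Time, treatment, biopsy round, diet at week 12 and, for week 4, that series cannot be told apart in a change over time. In bulk tissue, fewer cells of a type and less RNA per cell cannot be told apart either.

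The receptors and PPARGC1A were first compared between the arms, which asks whether blocking miR-33 altered the regulators of the lipid pathways it acts on. No member probe set passed the test: limma called 0 of 12 at baseline, 0 of 12 at week 4 and 0 of 12 at week 12. Over all tested probe sets the share called was 0.0% both at baseline and at week 4, and 0.00366%, which is 1 probe set, at week 12. At an unadjusted p under 0.05, 0 of the 12 member probe sets were found at each of the times, against 1042, 1400 and 778 of all 27304. The lowest unadjusted p of a member in limma was 0.0821 before treatment, 0.0629 at week 4 and 0.0573 at week 12. None of the alternative fits called a member between the arms.

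For NR1H3 the arms' values lay side by side. At week 12 its probe set 203920_at had a lowest, median and highest value of 7.12, 7.46 and 7.56 in anti-miR-33 animals, against 7.02, 7.37 and 7.69 in control animals. The ranges overlapped almost fully. The difference was 0.02 ± 0.14 (SE) with a 95% interval of -0.25 to 0.30, and the adjusted p in limma was 0.999.

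PPARGC1A had by far the widest spread of the set. Its main probe set, 219195_at, ranged from 5.16 to 9.18 over the 36 arrays, with a within-group SD of 0.950, and only 0.0842% of tested probe sets had a larger one. At baseline its lowest, median and highest values were 7.73, 8.20 and 8.61 in the later anti-miR-33 animals, against 6.29, 6.78 and 9.18 in the control animals. At week 4 they were 6.12, 7.02 and 8.12 under anti-miR-33, against 6.28, 7.11 and 8.09 under control. At week 12 they were 6.96, 8.04 and 9.04 under anti-miR-33, against 5.16, 7.70 and 9.10 under control. The anti-miR-33 values lay inside the control range at baseline and week 12, and the ranges overlapped at week 4 too. Control animals 3 and 4 were low at every time: animal 3 stood at 6.29, 6.28 and 6.00 and animal 4 at 6.37, 6.45 and 5.16 at baseline, week 4 and week 12. The difference between arms was 0.85 ± 0.48 at baseline, before treatment, -0.14 ± 0.48 at week 4 and 0.78 ± 0.48 at week 12 (SE). None passed, and the 95% interval at week 12 was wide, from -0.18 to 1.75.

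For the other 11 probe sets the differences at week 12 were smaller and better bounded. They ran from -0.25 to 0.15, and their 95% intervals reached from -0.68 to 0.53. At week 4 the lowest p was that of PPARA 226978_at, which differed by -0.26 ± 0.13 (unadjusted p = 0.0629 and adjusted p = 0.967 in limma). At week 12 it was that of RXRA 202449_s_at, which differed by -0.17 ± 0.09 at week 4 and -0.18 ± 0.09 at week 12, with -0.08 ± 0.09 at baseline. In week 12 biopsies it had a lowest, median and highest value of 8.61, 8.73 and 9.04 under anti-miR-33, against 8.70, 8.94 and 9.19 under control. The anti-miR-33 animals were mostly lower and the ranges overlapped, with anti-miR-33 animal 2, at 9.04, above all but 1 control animal. The second RXRA probe set, 202426_s_at, differed by 0.12 ± 0.12 at week 4 and -0.03 ± 0.12 at week 12. NR1I3 207007_at had 8.64, 9.35 and 9.92 under anti-miR-33 at week 12, against 8.66, 9.44 and 9.53 under control, a difference of 0.08 ± 0.16.

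**Figure D1:**
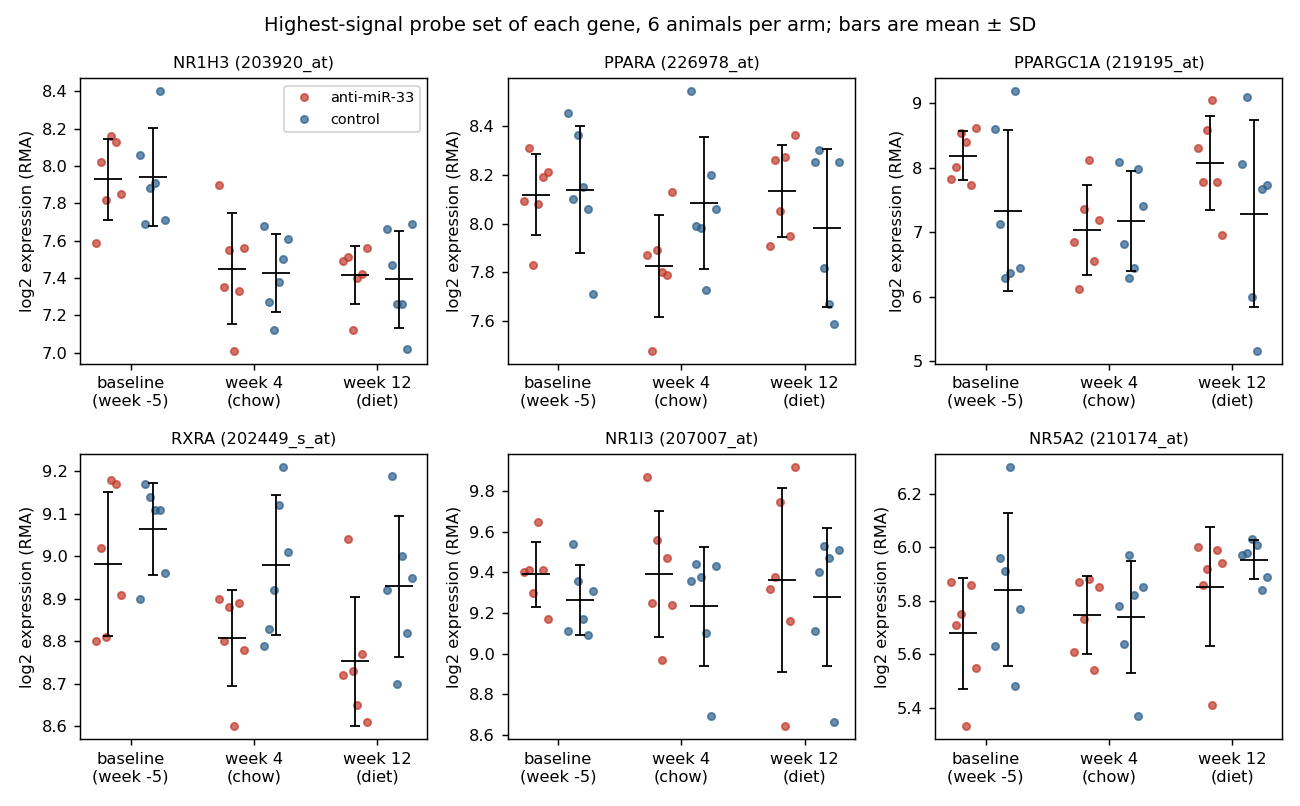
Log2 expression (RMA, vertical axis, scaled per panel) of the highest-signal probe set of each gene at baseline, week 4 and week 12; points are single animals, anti-miR-33 in red and control in blue, and bars are mean ± SD of 6 animals. NR1H3 is lower at week 4 and week 12 than at baseline in both arms, PPARGC1A spreads from 5.16 to 9.18, and the arms overlap in every panel.

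**Figure D2:**
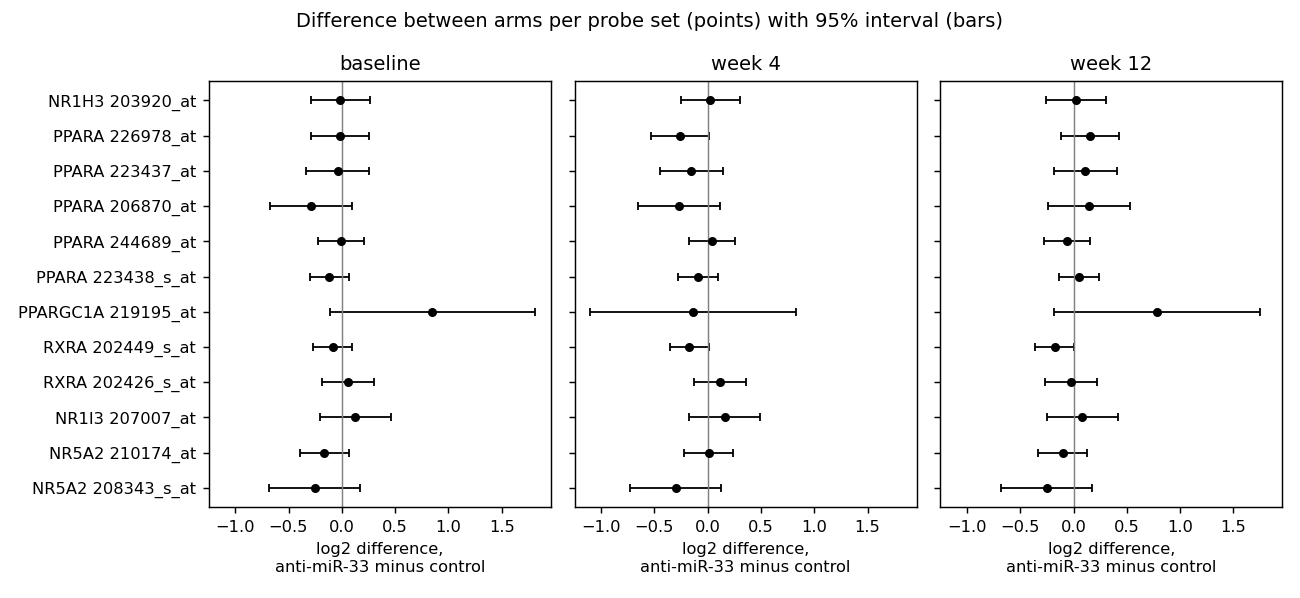
Difference between arms (anti-miR-33 minus control, log2, horizontal axis) for the 12 tested probe sets at each time; points are the limma estimates and bars their 95% intervals. Every interval includes 0, and those of PPARGC1A are the widest.

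The change over time was then compared between the arms, which takes lasting differences between animals out of the estimate. The SE of such a difference came from the model with 1 block correlation, 0.136, shared by all probe sets. It is not the spread of a probe set's own changes within animals. Again limma called 0 of 12 members for baseline to week 4, baseline to week 12 and week 4 to week 12, and 0.0% of all tested probe sets each time. Of the 12, 0, 0 and 1 had an unadjusted p under 0.05, against 945, 618 and 970 of all 27304. The 1 was PPARA 226978_at, the main probe set of the fatty acid sensor, from week 4 to week 12. Under anti-miR-33 its median was 8.16 at week 12, against 7.84 at week 4, while under control it was 8.04 at week 12, against 8.03 at week 4. Within animals the mean change was 0.31 ± 0.27 under anti-miR-33, with 6 of 6 animals higher at week 12, and -0.10 ± 0.33 under control, with 4 of 6 lower (SD, n = 6). The difference in change was 0.41 ± 0.18 (unadjusted p = 0.0253 and adjusted p = 0.999 in limma), so it did not pass. Of the other 4 tested PPARA probe sets, 206870_at stood at 0.41 and 223437_at at 0.27, while 223438_s_at stood at 0.14 and 244689_at at -0.10. PPARGC1A differed by -0.99 ± 0.62 in the change to week 4 and by 0.92 ± 0.62 from week 4 to week 12, with 6 of 6 anti-miR-33 animals and 4 of 6 control animals lower at week 4 than at baseline.

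Change over time that both arms shared was larger, and it was common across the array. At week 4, 35.4% of tested probe sets were called against baseline, 16.5% higher and 18.9% lower. At week 12, 24.1% were called against baseline, 10.2% higher and 13.9% lower, and 25.5% were called at week 12 against week 4, 12.3% higher and 13.2% lower. The members' counts were 5 of 12 at week 4 (2 higher and 3 lower), 5 of 12 at week 12 (1 higher and 4 lower) and 2 of 12 at week 12 against week 4 (1 higher and 1 lower). With 12 probe sets of 6 genes, these counts do not set the receptors apart from other genes, and what follows describes single probe sets. The members' median change was -0.10 at week 4, -0.08 at week 12 and 0.02 between them, against -0.00083, -0.0042 and 0.0017 over all tested probe sets.

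NR1H3, the oxysterol sensor, fell early and stayed down. At baseline 203920_at had a lowest, median and highest value of 7.59, 7.94 and 8.16 in the later anti-miR-33 animals, against 7.69, 7.90 and 8.40 in control animals. At week 4 the values were 7.01, 7.45 and 7.90 under anti-miR-33, against 7.12, 7.44 and 7.68 under control. With the week 12 values above, most later biopsies lay below the lowest baseline value, and a few overlapped with the baseline range. Over both arms it fell by 0.50 ± 0.09 (SE) at week 4, which is 1.41-fold lower than at baseline (limma adjusted p = 5.09e-05), in 11 of 12 animals. At week 12 it was lower by 1.44-fold than at baseline, a change of -0.53 ± 0.09 (limma adjusted p = 3.40e-05), in 12 of 12 animals. From week 4 to week 12, when the diet was switched, it moved by -0.03 ± 0.09. The difference between arms in the change was 0.04 ± 0.18 for both week 4 and week 12. Its r with the 3′ minus 5′ value was 0.56 over the 36 arrays and 0.11 after group means were taken off. With that value in the fit the falls were -0.43 ± 0.12 (limma adjusted p = 0.00648) and -0.45 ± 0.13 (limma adjusted p = 0.0297), and both calls stood in each of the 12 fits without 1 animal. Endothelial markers, lower at the same times, had a median change of -0.63 at week 4 and -0.72 at week 12, and their part in the fall was not tested.

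PPARA was read by 5 tested probe sets, and they did not move together. The probe set of highest signal, 226978_at, was not called: it changed by -0.17 ± 0.09 at week 4 and -0.07 ± 0.09 at week 12. Its lowest, median and highest values over the 12 animals were 7.71, 8.13 and 8.45 at baseline, then 7.48, 7.94 and 8.54 at week 4, then 7.59, 8.15 and 8.36 at week 12. The ranges of the 3 times overlapped almost fully. Probe set 244689_at was not called either, at -0.06 ± 0.07 and -0.16 ± 0.07.

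A fall was called for 223437_at at both times. It had 7.61, 8.19 and 8.50 at baseline, then 7.42, 7.61 and 8.16 at week 4, then 7.30, 7.72 and 8.09 at week 12. Both later medians lay well under the baseline median, and the ranges overlapped. The change was -0.46 ± 0.10 at week 4 (limma adjusted p = 0.000314), in 12 of 12 animals, and -0.42 ± 0.10 at week 12 (limma adjusted p = 0.00117), in 9 of 12. With the 3′ minus 5′ value in the fit the second was -0.34 ± 0.14 and was no longer called (limma adjusted p = 0.152).

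Probe set 223438_s_at fell at week 4 only to return. Its lowest, median and highest values were 5.80, 6.08 and 6.25 at baseline, then 5.30, 5.75 and 6.13 at week 4, then 5.89, 6.03 and 6.18 at week 12. It was lower in 11 of 12 animals at week 4 than at baseline, a change of -0.31 ± 0.06 (limma adjusted p = 0.000151), and higher in 10 of 12 at week 12 than at week 4, by 0.30 ± 0.06 (limma adjusted p = 0.000455). Both calls stood with the 3′ minus 5′ value in the fit.

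The opposite direction was seen in 206870_at. It had 6.60, 7.21 and 7.64 at baseline, then 7.00, 7.53 and 8.58 at week 4, then 6.67, 7.51 and 8.13 at week 12. It was higher at week 4 than at baseline by 0.40 ± 0.12 (limma adjusted p = 0.0116), in 11 of 12 animals, and at week 12 by 0.33 ± 0.12 (limma adjusted p = 0.0519), in 10 of 12, which was not called. The week 12 change was called in several alternative fits and not in others. Fits that called it included that without the control array of week 4 on the other diet (limma adjusted p = 0.0279). Others were those with the animal as a fixed block, with renormalization, with array weights or without the week 12 array of control animal 5, and 4 of the 12 fits without 1 animal. These values followed the quality measure: the Pearson r with the 3′ minus 5′ value was -0.66 over the 36 arrays and -0.54 after the group means were taken off. With that value in the fit, the changes were 0.08 ± 0.14 at week 4 and -0.05 ± 0.15 at week 12, and neither was called.

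Within groups the PPARA probe sets nevertheless tracked each other. After the group means were taken off, Pearson r between pairs of the 5 ran from 0.50 to 0.76 over the 36 arrays, highest for 223437_at with 244689_at. Before that step r was 0.14 for 223437_at with 206870_at, and after it 0.62. These are descriptions over arrays that share animals, times and RNA quality. The 4 PPARA probe sets under the signal limit averaged between 2.81 and 3.92 and correlated with the main one at -0.36 to 0.35 within groups.

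**Figure D3:**
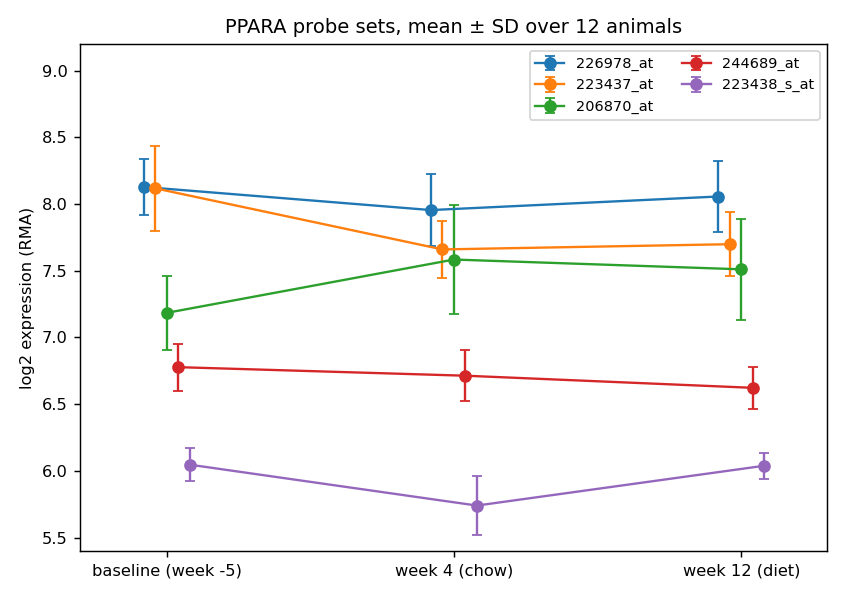
Log2 expression (RMA, vertical axis) of the 5 tested PPARA probe sets at baseline, week 4 and week 12; points are means of 12 animals of both arms and bars are SD. 223437_at is lower at both later times, 223438_s_at at week 4 alone, and 206870_at is higher, while 226978_at and 244689_at were not called.

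RXRA, the partner receptor, was lower at week 12. Probe set 202426_s_at had a lowest, median and highest value of 6.06, 6.38 and 6.68 at baseline, then 6.01, 6.37 and 6.73 at week 4, then 5.64, 6.00 and 6.27 at week 12. Week 12 was the low time, and the highest week 12 value lay below the baseline median. It was lower at week 12 than at baseline by 1.29-fold, a change of -0.37 ± 0.08 (limma adjusted p = 0.000601), in 11 of 12 animals, and lower than at week 4 in 10 of 12, a change of -0.37 ± 0.08 (limma adjusted p = 0.000859). At week 4 it stood at -0.0017 ± 0.079 against baseline. The fall from week 4 remained with the 3′ minus 5′ value in the fit, at -0.36 ± 0.08 (limma adjusted p = 0.00124), while that from baseline was then -0.31 ± 0.11 and not called (limma adjusted p = 0.112).

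The main RXRA probe set, 202449_s_at, moved less. It had 8.80, 9.07 and 9.18 at baseline, then 8.60, 8.89 and 9.21 at week 4, then 8.61, 8.80 and 9.19 at week 12. It was called lower at week 12 than at baseline, a change of -0.18 ± 0.06 (limma adjusted p = 0.0214), in 9 of 12 animals. That call was lost without anti-miR-33 animal 4 (-0.15, adjusted p = 0.0713), anti-miR-33 animal 5 (-0.16, adjusted p = 0.0614) or control animal 3 (-0.15, adjusted p = 0.0819), all in limma. Its r with the 3′ minus 5′ value was 0.53 over the 36 arrays and 0.45 after group means were taken off, and with that value in the fit the change was -0.04 ± 0.08. Both RXRA probe sets fell from baseline to week 12, and only 202426_s_at was called against week 4, where 202449_s_at stood at -0.05 ± 0.06. Within groups the r between them was 0.38.

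NR5A2, the bile acid and lipoprotein regulator, gave different answers from its probe sets. The main one, 210174_at, had a lowest, median and highest value of 5.33, 5.76 and 6.30 at baseline, then 5.37, 5.80 and 5.97 at week 4, then 5.41, 5.96 and 6.03 at week 12. It was higher at week 12 than at baseline in 11 of 12 animals, by 0.14 ± 0.07, and than at week 4 in 10 of 12, by 0.16 ± 0.07, and neither was called. Without anti-miR-33 animal 4, whose week 12 value of 5.41 was the lowest, the second was 0.22 ± 0.07 and was called (limma adjusted p = 0.0190).

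The second NR5A2 probe set, 208343_s_at, was called higher at both times. It had 4.26, 4.87 and 5.57 at baseline, then 4.62, 5.36 and 6.51 at week 4, then 5.07, 5.62 and 6.18 at week 12. Its change was 0.54 ± 0.14 at week 4 (limma adjusted p = 0.00251), in 8 of 12 animals, and 0.67 ± 0.14 at week 12 (limma adjusted p = 0.000364), or 1.59-fold, in 11 of 12. No other member followed the 3′ minus 5′ value so closely: r was -0.82 over the 36 arrays and -0.72 after the group means were taken off. With that value in the fit the changes were 0.04 ± 0.13 and 0.09 ± 0.14, and neither was called.

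**Figure D4:**
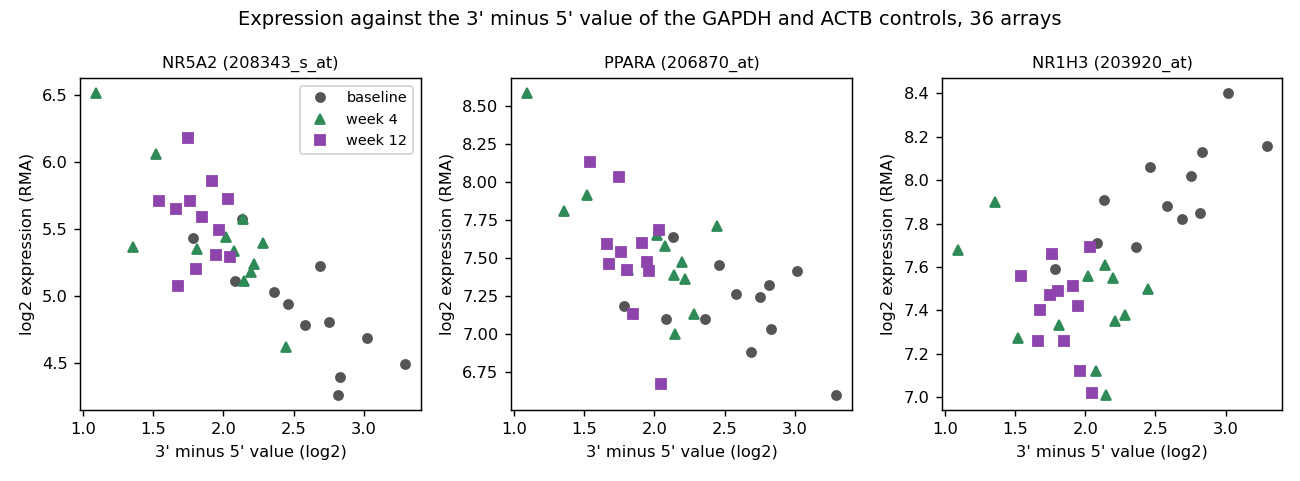
Log2 expression (RMA, vertical axis) of the 3 tested member probe sets of largest absolute r against the 3′ minus 5′ value of the GAPDH and ACTB controls (log2, horizontal axis) on 36 arrays, marked by time. NR5A2 208343_s_at and PPARA 206870_at fall along the axis (r of -0.82 and -0.66), also within a time, while NR1H3 is high in the baseline arrays and had an r of 0.11 once group means were taken off.

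NR1I3, the drug sensor, did not pass at any time. Probe set 207007_at had a lowest, median and highest value of 9.09, 9.34 and 9.65 at baseline, then 8.69, 9.37 and 9.87 at week 4, then 8.64, 9.39 and 9.92 at week 12. The medians lay within a narrow band, while the spread between animals was wider at week 12, with an SD of 0.384, against 0.171 at baseline, a description with no test. The changes were -0.01 ± 0.11 at week 4 and -0.01 ± 0.11 at week 12, and 5 of 12 and 6 of 12 animals were lower than at baseline.

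PPARGC1A 219195_at was lower at week 4 than at baseline in 10 of 12 animals, but the change of -0.66 ± 0.31 was not called (limma adjusted p = 0.0979). With the animal as a fixed block it was called (limma adjusted p = 0.0259), and with the 3′ minus 5′ value in the fit it was -0.32 ± 0.40 and not called (limma adjusted p = 0.611). The 12 animals had a lowest, median and highest value of 6.29, 7.92 and 9.18 at baseline, then 6.12, 7.02 and 8.12 at week 4, then 5.16, 7.77 and 9.10 at week 12. At week 12 the change from baseline was -0.08 ± 0.31, with 6 animals higher and 6 lower. The other PPARGC1A probe set, 1569141_a_at, lay under the signal limit at a mean of 3.85 and moved the other way, at 0.39 ± 0.14 at week 4 and 0.45 ± 0.14 at week 12 in a fit without that limit.

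**Figure D5:**
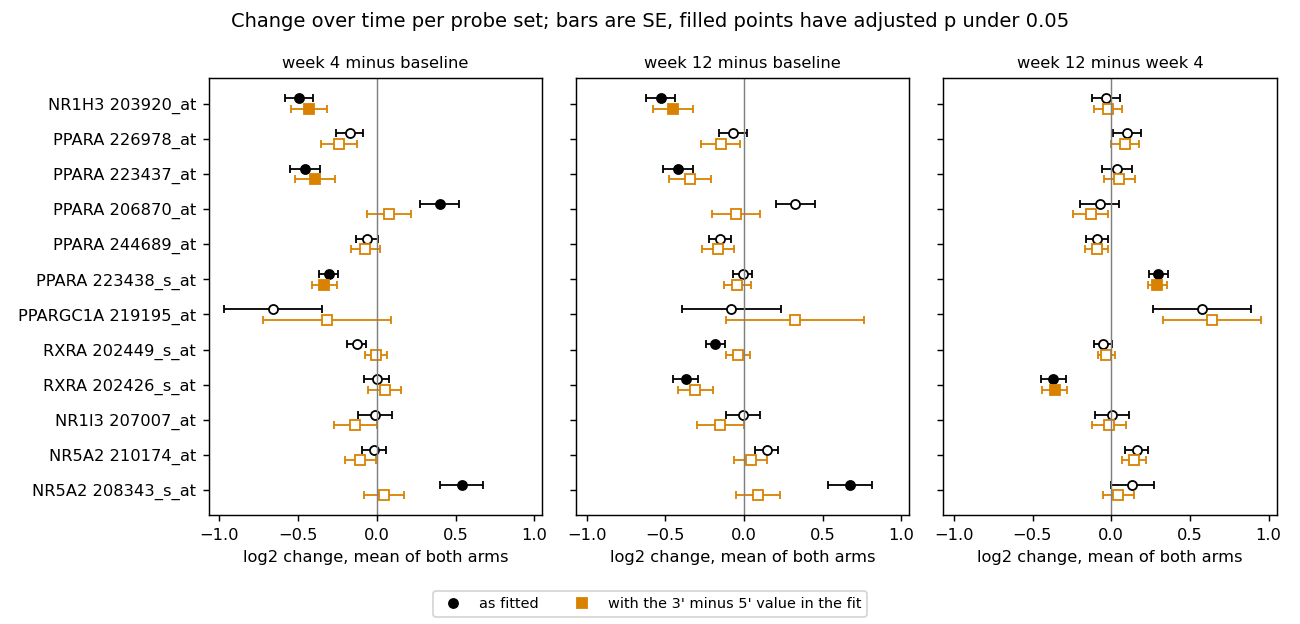
Change over time (log2, mean of both arms, horizontal axis) of the 12 tested probe sets, as fitted (black circles) and with the 3′ minus 5′ value in the fit (orange squares); bars are SE and filled symbols have an adjusted p under 0.05 in limma. With the quality value in the fit, NR1H3 stays called at both later times, while NR5A2 208343_s_at and PPARA 206870_at move to near 0.

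Of the 8 member probe sets under the limit, 7 averaged between 2.81 and 3.92 and 1, NR5A2 208337_s_at, 4.39. In a fit without the limit, 2 of them were called at week 4 and the same 2 at week 12. These were PPARGC1A 1569141_a_at and NR5A2 1560469_at, which rose by 0.34 ± 0.10 at both times (limma adjusted p = 0.0120 and 0.0194). Like 208343_s_at, the NR5A2 probe sets 1560469_at and 208337_s_at had positive changes, the last of 0.20 ± 0.11 and 0.21 ± 0.11, not called. Neither 1560469_at nor 208337_s_at was fitted with the 3′ minus 5′ value, with which 208343_s_at lost its calls. Agreement was defined only between the tested probe sets of a gene, so those under the limit did not count. It meant the same sign and at least 50% of the main probe set's change, where that exceeded 2 standard errors. PPARGC1A passed 2 standard errors at week 4, but its other probe set lay under the limit and moved the other way, at 0.39. For genes with more than 1 tested probe set, the shared changes over time gave 3 cases. The second RXRA probe set agreed at week 12 and not at week 4, against baseline. For week 12 against week 4 the second NR5A2 probe set agreed, at 0.13 beside 0.16 for the main one, and neither was called. There the NR5A2 probe sets under the limit barely moved, 1560469_at at 0.00083 and 208337_s_at at 0.005.

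The receptors' known target genes were counted from lists, each gene by its highest-signal probe set. Their changes come from the fit without the 3′ minus 5′ value, and no list gene was followed with that value in the fit. With it, 1186 of all tested probe sets were called at week 12 against baseline, in place of 6578. Between the arms, 0 genes of any list below were called at any time. For changes over time the share of all 13634 tested genes called was 35.4% at week 4, 26.4% at week 12 and 26.6% at week 12 against week 4, by direction 14.9% higher and 20.4% lower at week 4, 10.4% and 15.9% at week 12, and 13.2% and 13.4% at week 12 against week 4.

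Of 13 tested targets of the liver X receptors, 3 rose and 3 fell at week 4 and 5 rose and 2 fell at week 12, against baseline. Their median change was 0.11 at week 4 and 0.17 at week 12, against -0.01 for all genes at both times. SCD, the desaturase that makes monounsaturated fatty acids, rose by 2.22 ± 0.25 at week 12, or 4.67-fold. ABCA1, the cholesterol exporter, rose by 0.56 ± 0.11 at week 12, and CETP, the cholesteryl ester transfer protein, fell by 1.58 ± 0.15 at week 4 and by 1.55 ± 0.15 at week 12. These moved in both directions while NR1H3 was lower. Between arms ABCA1 differed by 0.55 ± 0.17 at week 4 and SREBF1, the driver of fatty acid synthesis, by -0.69 ± 0.42 at week 12, neither called.

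Among the targets of PPARA, which act mainly in fatty acid oxidation, most called genes were lower. Of 20 tested genes, 0 rose and 9 fell at week 4, and 1 rose and 7 fell at week 12, with medians of -0.30 and -0.21, against -0.01 for all genes at both times. ACADVL, which oxidises very long chain fatty acids in mitochondria, fell by 0.56 ± 0.13 at week 4 and by 0.53 ± 0.13 at week 12. EHHADH, of peroxisomal oxidation, fell by 0.45 ± 0.10 and by 0.37 ± 0.10. HADHA fell by 0.61 ± 0.14 at week 4 (another probe set at -0.20), and ACAA2 by 0.56 ± 0.10, where its other 2 probe sets stood at 0.33 and -0.06. From week 4 to week 12, 2 rose, VNN1 by 0.39 ± 0.10 and the fatty acid binding protein FABP1 by 0.22 ± 0.08, and 0 fell.

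Of 15 tested drug metabolism genes from a list that NR1I3 shares with a receptor not analysed here, 6 rose and 2 fell at week 4 and 8 rose and 2 fell at week 12. Their medians were 0.19 and 0.31, against -0.01 for all genes at both times. Only genes that rose are named here, and those called lower are not. ABCB1, a drug exporter, rose by 0.63 ± 0.08 at week 12, ALAS1, the first enzyme of haem synthesis, by 0.61 ± 0.12, and CYP3A43 by 0.57 ± 0.11 at week 4 and 0.58 ± 0.11 at week 12. SULT2A1, a sulfotransferase, rose by 0.51 ± 0.11 at week 12 (another probe set at 0.08).

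A list of 11 tested genes, mainly of bile acid synthesis, transport and signalling, had 1 higher and 3 lower at week 4 and 3 higher and 2 lower at week 12. Their median change was -0.06 at week 4 and 0.0 at week 12, against -0.01 for all genes at both times. The called genes of this list that fell are not named here. NR0B2, an orphan receptor that represses bile acid synthesis, rose by 1.04 ± 0.15 at week 12, or 2.05-fold, against baseline, and by 0.83 ± 0.15 against week 4. ABCB11, the bile salt export pump, rose by 0.80 ± 0.17 at week 4 and by 1.10 ± 0.17 at week 12. Of 7 tested genes that depend on NR5A2, 2 rose and 1 fell at week 4 and 3 rose and 2 fell at week 12. Most of that list, NR0B2, CETP and ABCG8 among them, also stood in the lists above. ABCG8, a sterol exporter, rose by 0.33 ± 0.11 and 0.41 ± 0.11.

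Of 13 tested genes that PPARGC1A coactivates, 1 rose and 4 fell at week 4, 2 rose and 0 fell at week 12, and 5 rose and 1 fell at week 12 against week 4. IDH3A, of the citric acid cycle, fell by 0.41 ± 0.06 at week 4 and rose by 0.26 ± 0.06 from week 4 to week 12. ATP5F1B, of the ATP synthase, fell by 0.20 ± 0.06 and rose by 0.22 ± 0.06 over the same steps. G6PC1, the last enzyme of glucose release, rose by 0.71 ± 0.21 at week 12 (another probe set at 0.18). The changes given for genes of these lists over time are limma calls with adjusted p between 7.99e-10 for CETP at week 4 and 0.0304 for FABP1.

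The genes whose patterns were most like each member's were found by Pearson r over the 36 arrays, before and after the 6 group means were taken off. For NR1H3 these were KIAA0232 (0.87 before and 0.76 after) and TRUB2 (0.85 before), with TMEM115 first after (0.76). For PPARGC1A they were NAV2 (0.87) and MID1 (0.86) before, and SIK2 (0.87) and ZNF281 (0.86) after. For PPARA they were ISCA1 (0.73) and PTGES3 (0.73) before, and TRMU (0.77) after. For RXRA DGKZ stood first after (0.81), for NR1I3 LIME1 (0.81), and for NR5A2 SNX4 both before (0.79) and after (0.75). Among the members' own main probe sets, r after group means ran from -0.47 for PPARGC1A with NR5A2 to 0.51 for NR1H3 with PPARA. The arrays share animals, times and RNA quality, and no test was made.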

How the data were processed

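RNA expression was measured on 36 arrays of 12 animals. The authors deposited log2 values, made with RMA per the submitters' processing notes; its version and the arrays normalized together are not given in the sources used. RMA removes a shift shared by most transcripts, and a human probe that mismatches the monkey transcript reads low in every group. Gene names came from the platform annotation, which can be old: 41097 probe sets had 1 gene, 1801 several and 11777 were not listed. The number of arrays limits the precision.

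The members and gene lists were chosen with earlier results of these data known. The 62 array maker's controls and probe sets under a mean of 4.459 were left out. A model with a mean per group and a random animal effect (block correlation 0.136) was fitted in limma 3.58.1 (R 4.3.3, statmod 1.5.0) for 9 comparisons. Arrays were paired by the labels' animal identifiers, and over the 36 pairs of arrays of the same animal, deviations from group means correlated at 0.247 on average and at 0.0535 or more, against -0.0175 for different animals. The highest-signal probe set of a gene was its main one, and up to 4 called genes of smallest p were eligible to be named per list and comparison. On simulated data with 27304 probe sets, 74% of changes of 0.5 and 97% of changes of 1.0 (log2) between arms at week 12 were recovered, and 96% and 99% for week 12 against baseline. The simulation held 100 changed probe sets of each size per comparison. With as few calls as between the real arms the adjustment is stricter, so the shares recovered between arms do not carry over to those tests. Alternatives covered the block, the filter, renormalization, array weights, the variance prior, the 3′ minus 5′ value as a covariate, 2 doubtful arrays and each animal left out.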

Additional observations from a re-analysis of the deposited data

Results flagged for a closer look

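The main probe sets of the 6 genes were examined for a single animal far from the rest of its group. In 3 of 36 groups of 6 animals, the gap from the extreme value to the nearest other was a share of the group's range above Dixon's limit, which chance passes in about 1 in 20 groups. All 3 were anti-miR-33 animals at week 12, each a different animal. NR1H3 203920_at was lowest in animal 3, at 7.12, with the others between 7.40 and 7.56. RXRA 202449_s_at was highest in animal 2, at 9.04, with the others between 8.61 and 8.77. NR5A2 210174_at was lowest in animal 4, at 5.41, with the others between 5.86 and 6.00.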

How the results depend on the processing

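Over 108 member results and their alternatives, 2263 of 2286 values kept their direction and side of the threshold, 9 lost and 12 gained a call, and 2 turned sign, where a sign change was counted only if a value was called or over 1 SE from 0. Those 2 arose with the 3′ minus 5′ value in the fit: PPARA 206870_at at week 12 against baseline (-0.053) and the arm difference in change to week 12 of NR5A2 208343_s_at (-0.23, main value 0.0017). Under that covariate 3 members were called at week 4, 1 at week 12 against baseline, and 1186 of all probe sets in place of 6578. With 1 probe set per gene, 1, 2 and 0 of 6 members were called at week 4, at week 12 and at week 12 against week 4. Without each animal in turn the counts ran from 5 to 5, from 4 to 6 and from 2 to 3. PPARA 244689_at at week 12 was called without control animal 6 (-0.20, adjusted p = 0.0324). Between arms, 0 members were called under every alternative, and the 1 call over all probe sets at week 12 was absent in 11 of them. The animal as a fixed replicate block gave 6, 6 and 2 members in the 3 changes over time and could not be fitted for arms at 1 time. The 3′ minus 5′ value and the time cannot be told apart in full, and the cause of these moves was not tested.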

Other observations

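Other nuclear receptors, their coregulators and the liver transcription factors that work beside them were counted by their highest-signal probe set, and limma called 0 of them between the arms at any time. Like the target lists, these genes were not followed with the 3′ minus 5′ value in the fit. Over all 13634 tested genes 35.4% were called at week 4 (14.9% higher and 20.4% lower) and 26.4% at week 12 (10.4% higher and 15.9% lower), against baseline, and the counts below stand beside those shares. Of 24 tested other nuclear receptors, 5 rose and 7 fell at week 4, and 3 rose and 6 fell at week 12, against baseline. NR2F1, an orphan receptor, fell by 0.53 ± 0.10 (SE) at week 4 and by 0.45 ± 0.10 at week 12, and NR4A3, an early response receptor, fell by 0.48 ± 0.08 at week 4 and rose by 0.38 ± 0.08 from week 4 to week 12. NR3C1, the glucocorticoid receptor, fell by 0.63 ± 0.06 at week 4 in 1 probe set, while its other 3 stood at -0.20, 0.25 and -0.21. RXRB, a relative of RXRA, fell by 0.25 ± 0.05 at week 12 (another probe set at -0.02).

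Of 15 tested coregulators, 0 rose and 2 fell at week 4, and 1 rose and 5 fell at week 12. MED1, the Mediator subunit that contacts nuclear receptors, fell by 0.63 ± 0.10 at week 4 and by 0.58 ± 0.10 at week 12, with 2 of its other 3 probe sets at -0.10 and -0.16 and at 0.15 and -0.08. CARM1, an arginine methyltransferase, fell by 0.44 ± 0.09 at week 12. Of 11 tested liver transcription factors, 2 rose and 2 fell at week 4, and 2 rose and 1 fell at week 12. ONECUT1 rose by 0.77 ± 0.12 and 0.74 ± 0.12, FOXA1 by 0.34 ± 0.10 and 0.45 ± 0.10, and CREB3L3, a partner of PPARA in fasting, fell by 0.42 ± 0.16 and by 0.44 ± 0.16.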
